A study of Mus musculus with 20 samples.

Results

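The question was whether macrophages grown with a DOT1L inhibitor answer an LXR agonist differently from control macrophages. The quantity described is the difference of 2 responses, (SGC0946+GW3965 minus SGC0946) minus (DMSO+GW3965 minus DMSO), taken per gene in 14 of the 20 libraries of the series. Bone marrow of C57BL/6 mice was cultured for 7 to 8 days with 15% L929-conditioned medium, the source of M-CSF, and received either 1 µM SGC0946 or the solvent DMSO through that time. The 4 groups were unstimulated DMSO cells (n = 4), DMSO cells given 2 µM GW3965 for 17 h (n = 3), unstimulated SGC0946 cells (n = 4) and SGC0946 cells given GW3965 in the same way (n = 3). Cells of all groups thus shared the strain and the culture, and SGC0946 was present from the start of differentiation, so its direct and its developmental effects cannot be told apart. The 6 LPS libraries of the series entered no comparison. They took part in the estimate of the spread, the filter on low counts, the scaling and the choice of 1 transcript per gene. A gene called measured is one that passed this filter over all 20 libraries. Of the 12010 genes tested, 12 had no count in the 14 libraries. With the 4 groups alone 11739 genes passed the filter. Libraries are named by the number of the mouse: mice 1 to 3 gave cells to all 4 groups, and mouse 4 gave unstimulated cells only. The titles of DMSO 1 to 3 and of DMSO+GW3965 1 to 3 carry the word reanalyzed and no SGC0946 title does, so what that word stands for and the arm cannot be told apart in the difference of responses.

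LXR alpha (Nr1h3) and LXR beta (Nr1h2) are nuclear receptors that bind oxysterols and, paired with RXR, switch on genes that export cholesterol, take part in lipoprotein traffic and make fatty acids. GW3965 is a synthetic agonist of both. LXR activation is also known to dampen inflammatory genes in macrophages. DOT1L places methyl groups on lysine 79 of histone H3 in the body of transcribed genes, and SGC0946 blocks that enzyme.

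The 14 libraries held 8.5 to 13.1 M counts each over the genes used (median 10.26 M), and 12010 genes passed the filter on low counts. The 24 macrophage identity genes, all measured, summed to 57600 to 67000 CPM (counts scaled to library size) in the 14 libraries with overlapping ranges in all 4 groups. The 9 erythroid markers did not pass the filter. Xist was at 486 to 704 CPM in all libraries of mice 2 to 4 and under 1 CPM in those of mouse 1, whose libraries alone had high Ddx3y (108 to 136 CPM), so the libraries of a mouse matched one another in sex. Dot1l, the gene of the inhibitor's target, was measured in every group, and its response was 0.26 ± 0.14 (log2, SE) in DMSO and 0.26 ± 0.14 in SGC0946 cells, neither of which passed (adjusted p = 0.365 and 0.416).

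Bases before the start sites of 3 LXR targets that rose under GW3965 in both arms are shown as examples. They hold a match to the element that LXR and RXR bind, a DR4, in which 2 copies of AGGTCA stand 4 bases apart. Arl4c also rose in both arms and holds such matches, which are not shown. The search took AGGTCA, any 4 bases and AGGTCA on both strands, with up to 3 mismatches in its 12 fixed bases, in the 250 bases before each RefSeq start site (GRCm38.p6). Capitals mark the match, which lies on the strand opposite to the gene and therefore reads TGACCT, any 4 bases, TGACCT.
Abca1, chr4:53159902-53160007, minus strand: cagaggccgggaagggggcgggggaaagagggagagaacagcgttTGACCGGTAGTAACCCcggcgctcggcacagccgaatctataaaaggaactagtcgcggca
Srebf1, chr11:60210593-60210698, minus strand: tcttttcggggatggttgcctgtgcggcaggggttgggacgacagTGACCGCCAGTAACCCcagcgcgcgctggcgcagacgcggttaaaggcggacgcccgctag
Fasn, chr11:120824712-120824797, minus strand: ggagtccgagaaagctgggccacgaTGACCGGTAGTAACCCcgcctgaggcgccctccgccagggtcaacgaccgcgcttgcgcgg
The 16 capital letters are the same in Abca1 and Fasn, and each of the 3 matches has 3 mismatches. The matches end 51 bases before the start site in Abca1, 166 in Srebf1 and 209 in Fasn. A match of this kind stood in 5 of the 14 genes of the LXR target list that have a promoter in the RefSeq table (the other 2 are Arl4c and Cd38) and in 20.9% of all 27025 genes with one, so it is a description of these letters and not of binding.

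No gene passed the test of the difference of responses. Of 12010 genes, 0 (0%) had an adjusted p under 0.05 by edgeR's quasi-likelihood test, 290 (2.41%) had an unadjusted p under 0.05, and the smallest adjusted p was 1. DESeq2 and limma-voom called 0 genes too, with 217 and 294 at an unadjusted p under 0.05. The count stayed 0 in all 30 alternatives run. With the mouse as a block the unadjusted count was 356, and with a separate mouse effect in each arm it was 537. It was 557 without SGC0946+GW3965 2.

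The response itself was present in both arms. In DMSO cells 306 genes (2.55%) passed, 162 higher (1.35%) and 144 lower (1.2%). In SGC0946 cells 291 genes (2.42%) passed, 158 higher (1.32%) and 133 lower (1.11%). The average of the 2 responses, which does not use their difference, passed for 1160 genes (9.66%), 573 higher (4.77%) and 587 lower (4.89%). These counts moved with the libraries. In DMSO cells 176, 155 and 175 genes passed without DMSO 1, 2 or 3, and 124 and 122 without DMSO+GW3965 2 or 3. In SGC0946 cells 181 and 149 passed without SGC0946 2 or 4, 134 without SGC0946+GW3965 1 and 485 without SGC0946+GW3965 2. With the mouse as a block 532 genes passed in DMSO cells, and with a mouse effect in each arm 1045 passed in DMSO cells, 673 in SGC0946 cells and 1902 in the average. With scaling by library totals only, the split of higher to lower genes was 129 to 228 in DMSO cells, 120 to 186 in SGC0946 cells and 407 to 821 in the average.

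Replicate libraries varied more among SGC0946 cells than among DMSO cells. Over genes at 10 CPM or more, the median SD of log2 levels was 0.075 in DMSO, 0.077 in DMSO+GW3965, 0.097 in SGC0946 and 0.11 in SGC0946+GW3965 cells. When each arm was fitted alone, with its own estimate of the spread, 888 genes passed in DMSO cells and 88 in SGC0946 cells. The difference of responses itself passed for 0 genes, so these counts do not show that the response differs between the arms.

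The genes that responded moved in the same direction in both arms. The 2 responses share no library, although they share mice. Over all 12010 genes tested, 8530 (71%) had the same sign in both arms, and 81.7% did at 100 CPM or more. Of the 306 genes that passed in DMSO cells, 304 (99.3%) had the same sign in SGC0946 cells and 156 (51%) also passed there. Of the 291 that passed in SGC0946 cells, 287 had the same sign in DMSO cells and the same 156 (53.6%) passed there. No gene passed in opposite directions. All 162 genes that rose in DMSO cells were higher in SGC0946 cells, and 106 of them passed. Of the 144 that fell in DMSO cells 142 were lower in SGC0946 cells, and 50 passed. The median size of the response was 0.43 in the arm in which genes were called and 0.34 in the other for the DMSO calls, and 0.45 and 0.34 for the SGC0946 calls. The smaller value in the other arm was thus seen from both sides, and in each case the first arm was the one that chose the genes. Genes called by the average are not chosen by either arm alone. Among its 573 higher genes the median response was 0.24 in DMSO and 0.24 in SGC0946 cells, and 260 were larger in DMSO cells. Among its 587 lower genes the medians were -0.31 and -0.30, and 331 were larger in DMSO cells.

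**Figure D1:**
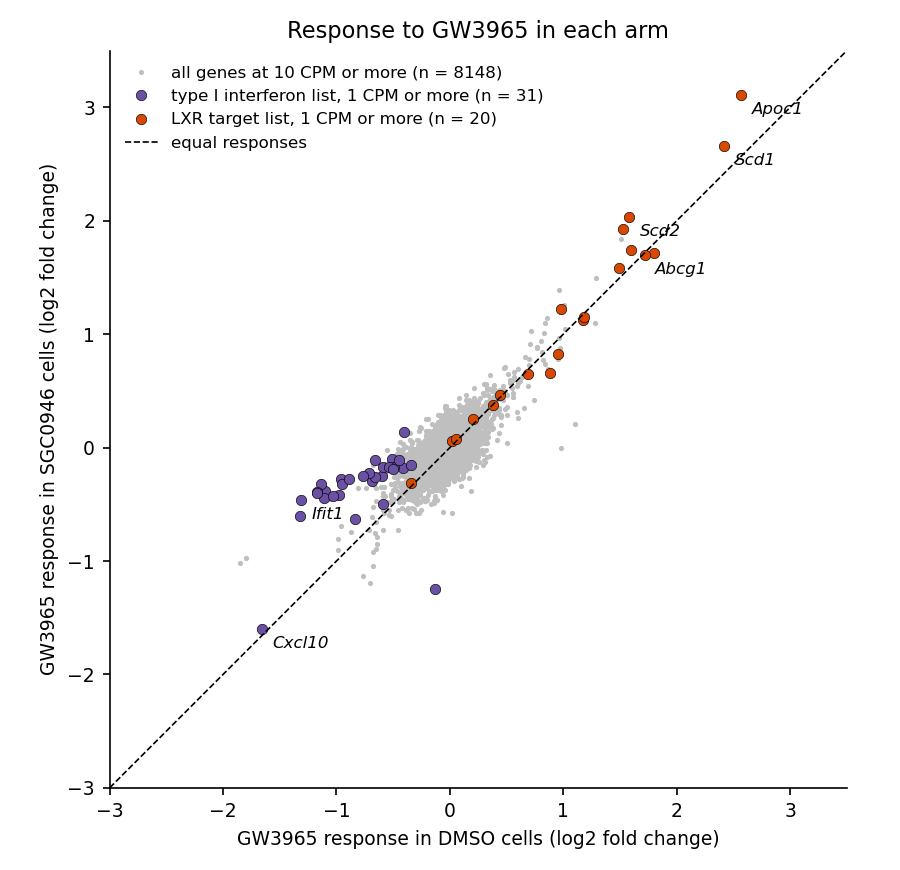
Response to GW3965 in DMSO cells (x axis) against SGC0946 cells (y axis), both as log2 fold changes. Grey points are the 8148 genes at 10 CPM or more, orange points 20 LXR targets and purple points 31 type I interferon genes at 1 CPM or more, and the dashed line marks equal responses. LXR targets lie along the line, and most interferon genes lie above it, with a smaller fall in SGC0946 cells.

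How close the responses were depended on the level of the gene. Across genes, which are not independent replicates, Pearson's r between the responses was 0.46 over all 12010 genes, 0.35 over the 3862 genes under 10 CPM, 0.72 over the 6272 genes from 10 to 100 CPM and 0.91 over the 1876 genes at 100 CPM or more. Without a filter on low counts it was 0.09 over 17488 genes, and with a count minimum of 50 it was 0.63. With the 4 groups alone, without the LPS libraries, it was 0.58 over 11739 genes.

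The precision of the difference set what could be seen. The median half-width of its 95% interval was 0.69 (log2) for genes under 10 CPM, 0.27 from 10 to 100 CPM and 0.18 at 100 CPM or more. The interval lay within 2-fold in either direction for 10234 of 12010 genes (85.2%), and within 1.5-fold for 8215 (68.4%). By level, it lay within 2-fold for 55.6% of genes under 10 CPM, 99.2% from 10 to 100 CPM and 99.3% at 100 CPM or more. For most genes at 10 CPM or more a difference of more than 2-fold is thus outside the interval. For many genes under 10 CPM such a difference was not detectable at this depth in this fit, which did not pair the libraries of a mouse. Of the genes tested 752 had a mean under 1 CPM in the 14 libraries.

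**Figure D2:**
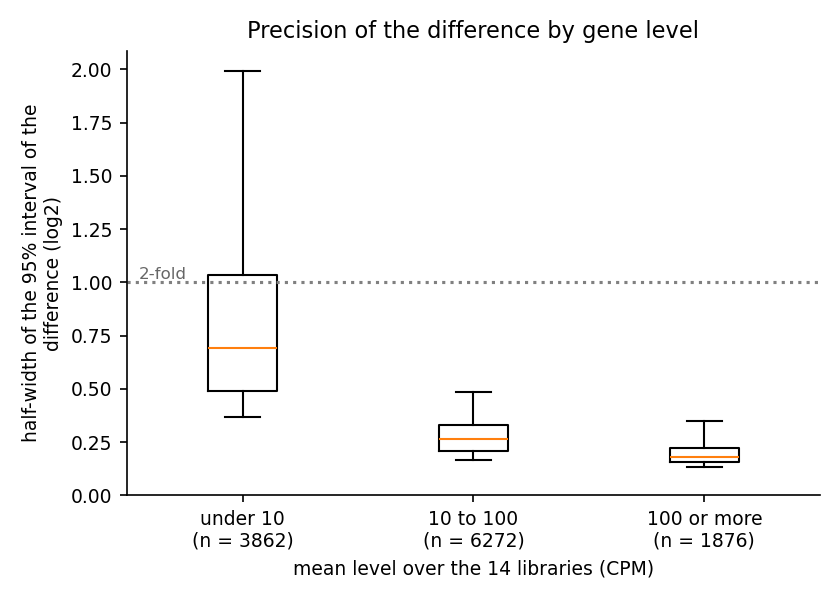
Half-width of the 95% interval of the difference of responses (log2, y axis) by the mean level of the gene (CPM, x axis). Boxes span the quartiles, the line is the median (0.69, 0.27 and 0.18), whiskers reach the 5th and 95th percentiles, and the dotted line marks 2-fold. Intervals narrow as the level rises.

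LXR targets made up 6 of the 8 genes that rose most in the average at 1 CPM or more (Apoc1, Scd1, Scd2, Abca1, Fasn and Abcg1, with Il1a and Bach2os), and no difference between their 2 responses passed. That level is a mean over the 14 libraries, and Apoc1 reached it only through the GW3965 groups. Its means were 0.21 and 1.27 CPM without and with agonist in DMSO cells, and 0.342 and 3.14 CPM in SGC0946 cells. Of the 21 genes of the list, all measured, 14 rose in DMSO cells, 15 in SGC0946 cells and 16 in the average, and none fell. Over all genes 1.35%, 1.32% and 4.77% rose. Without mouse 1 the counts of the list in the 2 arms were 8 and 10, and without mouse 3 they were 9 and 12. With SGC0946 cells fitted alone 9 rose there. Abca1, Abcg1, Arl4c, Lpcat3, Mylip, Scd1 and Scd2 rose in both arms in all 30 alternatives. The median response was 0.98 in DMSO and 1.13 in SGC0946 cells, against -0.01 and 0 over all genes. The median difference of responses was 0.03, with values of the members from -0.22 to 0.63, against 0.01 over all genes, and the median ran from -0.06 to 0.11 over the alternatives. No member had an unadjusted p under 0.05, and 17 of 21 intervals lay within 2-fold. Over the alternatives 0 to 2 members had an unadjusted p under 0.05, with 2 under library weights, where 4.22% of all genes did. Per mouse, the median response of the list was 0.99, 1.01 and 1.02 in DMSO cells of mice 1 to 3 and 0.97, 1.25 and 1.10 in SGC0946 cells. Every SGC0946 mouse lay above every DMSO mouse for 4 of the 21 members, against 5.02% of all genes. For 1 member every SGC0946 mouse lay below, against 5.06%. These counts were not tested.

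The cholesterol exporters Abca1 and Abcg1 rose in both arms. Abca1, which passes cholesterol to lipid-poor apolipoprotein, was at 681, 674, 710 and 647 CPM in DMSO 1 to 4 and at 2290, 2330 and 2460 CPM in DMSO+GW3965 1 to 3. In SGC0946 cells it was at 687, 936, 693 and 862 CPM unstimulated and at 2190, 3140 and 2510 CPM with GW3965. Groups with and without the agonist did not overlap in either arm, and mouse 2 was highest in both SGC0946 groups. The response was 1.80 ± 0.11 (log2, SE) in DMSO (adjusted p = 2.38e-09) and 1.72 ± 0.11 in SGC0946 cells (adjusted p = 4.64e-09), a difference of -0.08 with a 95% interval from -0.42 to 0.26. Abcg1, which exports cholesterol to mature HDL, was at 405, 387, 414 and 365 CPM in DMSO and 1360, 1280 and 1250 CPM in DMSO+GW3965 cells. It was at 458, 436, 495 and 413 CPM in SGC0946 and 1480, 1590 and 1320 CPM in SGC0946+GW3965 cells. Its responses of 1.72 ± 0.07 and 1.70 ± 0.07 differed by -0.02 (-0.22 to 0.18), among the narrowest intervals of the list.

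**Figure D3:**
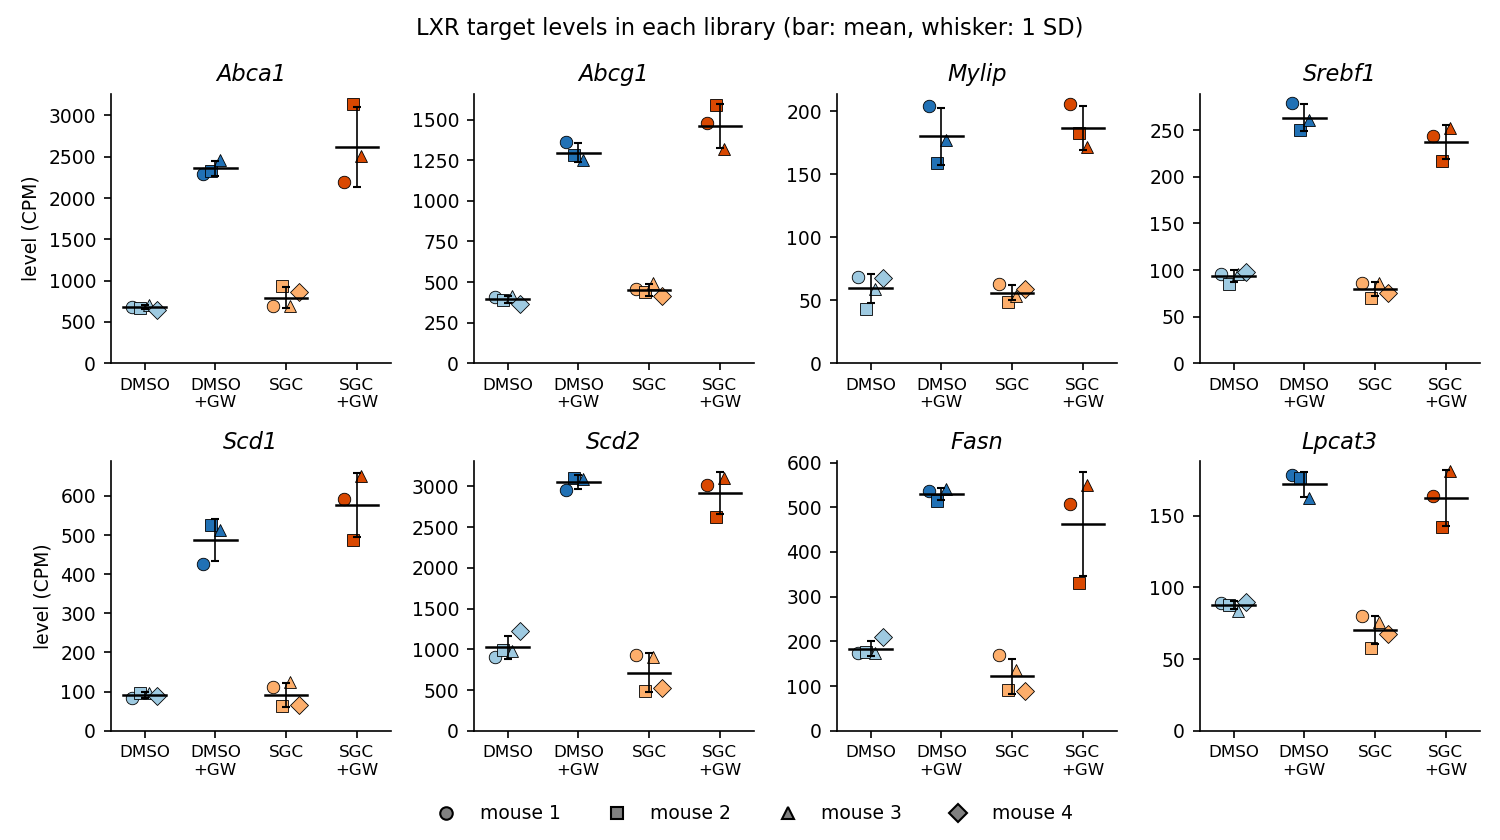
Levels (CPM, y axis) of 8 LXR targets in each of the 14 libraries by group (x axis); symbols mark the mouse, bars the group mean and whiskers 1 SD. In each panel the GW3965 libraries of both arms lie above the unstimulated ones, and for Scd2 and Fasn the SGC0946 libraries of mice 2 and 4 lie lowest.

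Of the regulators in the list, Mylip, Srebf1 and Arl4c rose in both arms and Nr1h3 passed in neither. Mylip, a ubiquitin ligase, rose by 1.60 ± 0.12 in DMSO and 1.74 ± 0.12 in SGC0946 cells, a difference of 0.14 (-0.21 to 0.48). Srebf1, the transcription factor of fatty acid synthesis, rose by 1.49 ± 0.26 and 1.58 ± 0.26, with a wider interval of -0.68 to 0.86 around a difference of 0.09. Arl4c, a small GTPase, rose by 1.17 ± 0.08 and 1.13 ± 0.08, a difference of -0.04 (-0.27 to 0.19). Nr1h3, the receptor gene and itself in the list, was at 7.38 to 9.95 CPM in DMSO libraries and 8.12 to 10.4 CPM in SGC0946 libraries, and its responses were 0.02 and 0.06, neither of which passed. Nr1h2, outside the list, had responses of -0.08 and -0.14 and a difference of -0.06 (-0.23 to 0.11).

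The lipid-making genes of the list, Scd2, Fasn and Scd1, had larger responses in SGC0946 cells by value, and no difference passed. Scd2, a stearoyl-CoA desaturase, was at 902, 988, 984 and 1220 CPM in DMSO 1 to 4 and 2960, 3110 and 3090 CPM in DMSO+GW3965 cells. In SGC0946 cells it was at 931, 483, 907 and 531 CPM in mice 1 to 4 and at 3020, 2620 and 3110 CPM with GW3965. Unstimulated SGC0946 cells of mice 2 and 4 were thus the low libraries, and with GW3965 mouse 2 was again the lowest. The responses were 1.58 ± 0.20 and 2.03 ± 0.21, a difference of 0.46 (-0.15 to 1.06, adjusted p = 1). Fasn, fatty acid synthase, had the same low libraries, at 170, 91.7, 136 and 88.6 CPM in SGC0946 1 to 4, and differed by 0.40 (-0.32 to 1.11). Scd1, the desaturase with the largest rise (2.42 ± 0.20 and 2.66 ± 0.21), differed by 0.24 (-0.35 to 0.84). Scd1 and Scd2 are close paralogs, so reads shared between them are uncertain.

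Lpcat3, which puts polyunsaturated chains into phospholipids, had the smallest p of the list. It was at 89.4, 87.4, 83.6 and 89.7 CPM in DMSO and 178, 176 and 162 CPM in DMSO+GW3965 cells. In SGC0946 cells it was at 79.9, 57.5, 75.7 and 67.3 CPM unstimulated and 164, 142 and 181 CPM with GW3965. The agonist groups of the 2 arms overlapped, and the unstimulated SGC0946 libraries were all under the DMSO ones. The difference was 0.24 (-0.04 to 0.51, adjusted p = 1). Lpcat3 shares 10.2% of its exon bases with another annotated gene, so its count is uncertain.

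The apolipoprotein genes Apoe and Apoc1 were less precise than Abca1 and Abcg1, and the precision of other members varied. Apoe, the apolipoprotein that carries lipid away from macrophages, rose by 0.67 in the average (adjusted p = 0.00306), with responses of 0.69 ± 0.19 and 0.65 ± 0.19 that did not pass in either arm alone. Without mouse 1 the average did not pass either. Apoc1 had the largest rise of the genes at 1 CPM or more, 2.57 ± 0.63 and 3.11 ± 0.50, but at 0.15 to 0.252 CPM in DMSO and 0.0903 to 0.82 CPM in SGC0946 cells its difference of 0.54 had an interval from -1.48 to 2.57. Lpl, lipoprotein lipase, rose by 0.95 ± 0.14 and 0.83 ± 0.14, and Cd5l, a secreted macrophage protein, by 0.38 ± 0.09 in each arm. Smpdl3a, Pltp and Abca9 passed in neither arm, with responses of 0.05 and 0.08, 0.20 and 0.25, and -0.34 and -0.31. The count of Pltp is uncertain, as 19.3% of its exon bases are shared with another gene.

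**Figure D4:**
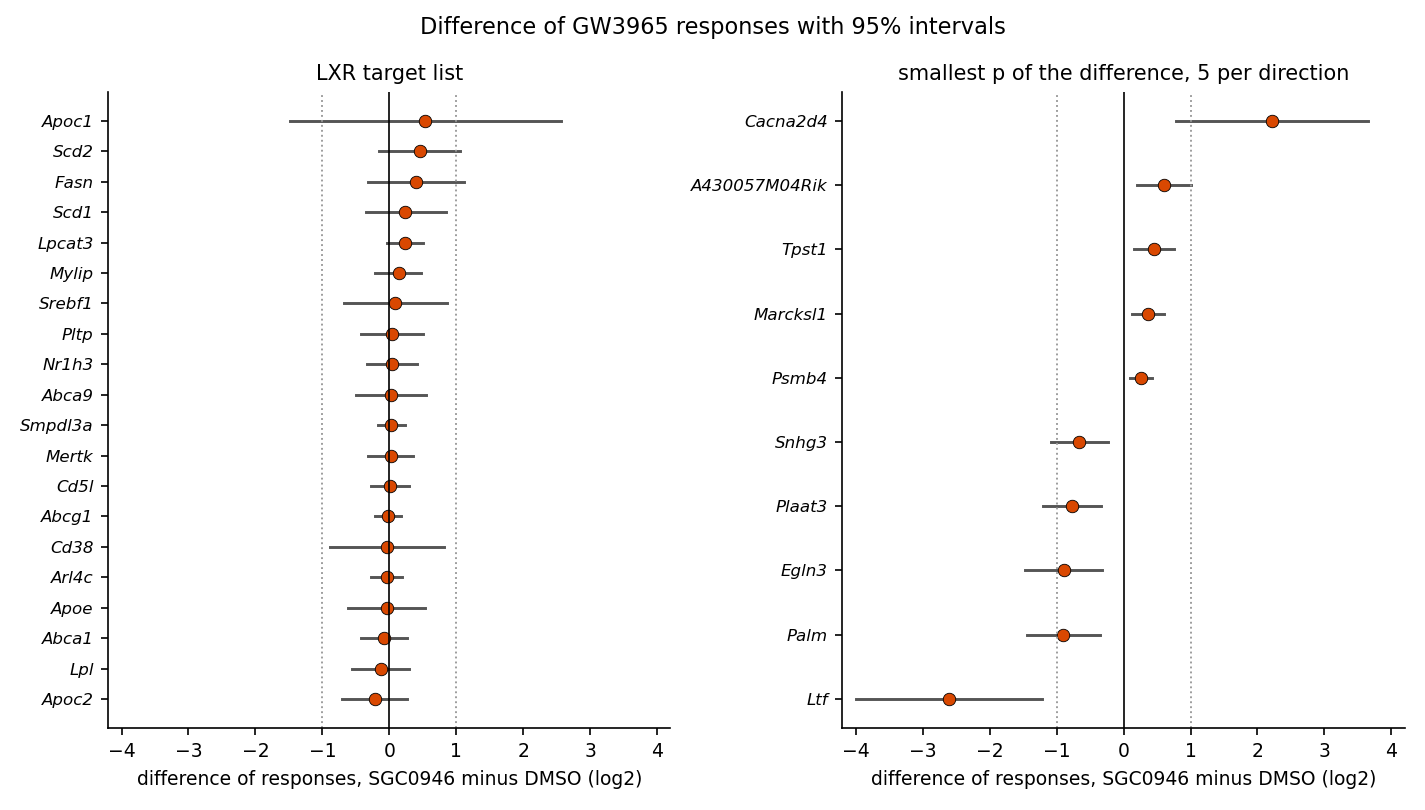
Difference of responses (log2, SGC0946 minus DMSO, x axis) with its 95% interval for 20 LXR targets at 1 CPM or more (left) and for the 10 genes with the smallest p, 5 per direction (right). Dotted lines mark 2-fold. Each LXR target's interval includes 0, that of Apoc1 being the widest, and no gene at right passed after adjustment.

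The wider list of fatty acid synthesis, which holds Scd1, Scd2 and Fasn again, had most of its differences above 0 by value. Of its 21 measured genes (24 in the list) 8 rose in DMSO, 9 in SGC0946 cells and 11 in the average, and none fell. Over all genes 1.35%, 1.32% and 4.77% rose. Without mouse 3 the count in DMSO cells was 5. Acsl3 and Acsl4, which activate long fatty acids, rose by 1.01 ± 0.12 and 1.02 ± 0.08 in DMSO and by 1.26 ± 0.12 and 1.05 ± 0.08 in SGC0946 cells. Acaca, which makes malonyl-CoA, rose by 0.72 ± 0.14 and 1.03 ± 0.14, a difference of 0.31 (-0.11 to 0.72). Acsl1 had the smallest p of the list, a difference of -0.17 (-0.39 to 0.05). By value 17 of the 21 differences were above 0 and 3 below. The median difference of the list was 0.11, against 0.01 over all genes, and ran from 0.04 to 0.21 over the alternatives. It was 0.04 without mouse 4, which has no GW3965 library, without DMSO+GW3965 1 and without SGC0946 2, and 0.21 without SGC0946+GW3965 2.

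Cholesterol synthesis genes did not pass in either arm, and their median difference moved with single libraries. Of 22 genes 0 passed in DMSO cells, 0 in SGC0946 cells and 2 rose in the average, where 4.77% of all genes rose. Pmvk, phosphomevalonate kinase, was 1 of the 2, with a rise of 0.38 (adjusted p = 0.0347), a call that held in 16 of 30 alternatives. The median response was -0.05 in DMSO and 0.07 in SGC0946 cells, and the median difference was 0.15, with 18 of 22 members above 0. Without mouse 4 the median difference was 0.02, and with a mouse effect in each arm it was also 0.02. Without SGC0946+GW3965 2 it was 0.29, and 4 members then had an unadjusted p under 0.05, against 1 with all libraries. Over all genes that share was 4.58% without this library and 2.41% with it. Leaving out any other single library of the 4 groups gave a median difference of 0.07 to 0.24. Hmgcs1, an early enzyme of the mevalonate pathway, was at 239, 325, 297 and 330 CPM in DMSO 1 to 4 and 245, 286 and 266 CPM in DMSO+GW3965 cells. In SGC0946 cells it was at 224, 166, 230 and 154 CPM unstimulated and 208, 163 and 202 CPM with GW3965. Mice 2 and 4 were the low ones unstimulated, and mouse 2 was low again with GW3965. Mouse 4 has no GW3965 library, so an average over 4 unstimulated libraries was set against one over 3. The part of this in the median difference was not tested beyond the fits above. Idi1 was the member with an unadjusted p under 0.05, a difference of -0.83 (-1.63 to -0.02), at a mean of 1.68 CPM. Of the SREBP factors and regulators (10 of 11 measured), 2 rose in DMSO, 3 in SGC0946 cells and 5 in the average. Over all genes 1.35%, 1.32% and 4.77% rose. Insig1, which holds SREBP in the endoplasmic reticulum, rose in SGC0946 cells by 0.56 ± 0.14 (adjusted p = 0.0409) and had 0.30 ± 0.14 in DMSO cells, a difference of 0.26 (-0.16 to 0.68); the call held in 18 of 30 alternatives. Scap, the escort of SREBP, had an unadjusted p of 0.0203 for a difference of 0.24 (0.04 to 0.44), with responses of -0.15 and 0.10 that did not pass. The counts of Hmgcs1 and Scap are uncertain, as 12.1% and 13.2% of their exon bases are shared with other genes.

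Type I interferon genes were the list whose responses lay furthest apart, and the ranges over mice overlapped between the arms. Of 33 genes 13 fell in DMSO cells, 3 in SGC0946 cells and 21 in the average, against 1.2%, 1.11% and 4.89% of all genes. None rose. Ifnb1, a member, had 2 counts over the 14 libraries and passed the filter only through the LPS libraries. The median response was -0.69 in DMSO and -0.29 in SGC0946 cells. The median difference was 0.42, with 30 of 33 members above 0, against a median of 0.01 over all genes. The 3 that fell in SGC0946 cells were Cxcl10, Cxcl9 and Ifi205, of which only Cxcl10 also passed in DMSO cells. No member passed the test of the difference, and 5 of 33 had an unadjusted p under 0.05, against 2.41% of all genes. Of these, Oas1a, Cmpk2 and Mx1 were above 0 and Cxcl9 and Ifi205 below it. Cxcl9 had a mean of 0.345 CPM and 1 count in all SGC0946+GW3965 libraries together, and Ifi205 had a mean of 1.82 CPM. Per mouse, the median response was -0.58, -1.47 and -0.53 in DMSO cells of mice 1 to 3 and -0.08, -0.27 and -0.77 in SGC0946 cells. Mouse 3 therefore had the larger fall in SGC0946 cells, and mice 1 and 2 in DMSO cells. Members for which every SGC0946 mouse lay above every DMSO mouse numbered 2 of 33, against 603 of 12010 genes (5.02%), and 1 of 33 lay below, against 608 (5.06%).

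Ifit1, an interferon-induced RNA-binding protein, showed which libraries moved. It was at 56.1, 120, 45.6 and 31.6 CPM in DMSO 1 to 4 and at 30.4, 21.4 and 25.2 CPM in DMSO+GW3965 1 to 3. In SGC0946 cells it was at 60, 43.9, 55.8 and 52.8 CPM unstimulated and at 50.3, 36.3 and 28.7 CPM with GW3965. DMSO 2 was the high library and DMSO 4 was close to the agonist libraries, while the SGC0946 libraries without agonist were near one another. The response was -1.31 ± 0.30 in DMSO (adjusted p = 0.0194) and -0.46 ± 0.29 in SGC0946 cells (adjusted p = 0.499), a difference of 0.84 (0.00 to 1.69, adjusted p = 1). The fall in DMSO cells passed in 23 of 30 alternatives. Cmpk2 (0.77, from 0.06 to 1.48), Mx1 (0.67, from 0.01 to 1.33) and Isg15 (0.72, from -0.03 to 1.47) had the same high library. Mx1 has a close paralog, which makes its count less certain. Ifit1 and Isg15 are named here after their values were seen.

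The interferon counts moved with single libraries. Members that fell in DMSO cells numbered 4 without DMSO 2, 28 without DMSO 4, 8 without DMSO 1, and 6, 1 and 2 without DMSO+GW3965 1, 2 or 3. They numbered 0, 1 and 1 without mouse 1, 2 or 3, 27 without mouse 4, 27 with the mouse as a block, 22 by DESeq2 and 6 by limma-voom. In SGC0946 cells 0 to 5 fell over the alternatives. The median difference was 0.23 without DMSO 2, 0.20 without SGC0946+GW3965 1 and 0.10 without mouse 2, and it was 0.59 without DMSO 4, 0.62 without DMSO+GW3965 1 and 0.66 without mouse 3. Members with an unadjusted p under 0.05 for the difference numbered 26 without DMSO 4 and 20 without mouse 4. They numbered 23 with a mouse effect in each arm and 1 under library weights. Over all genes the shares in these 4 fits were 2.59%, 2.33%, 4.47% and 4.22%. In none of these fits did a gene pass after adjustment. Cxcl10, an interferon-induced chemokine, fell alike in both arms, by 1.66 ± 0.28 and 1.60 ± 0.27 on the log2 scale, and its difference was 0.05 (-0.77 to 0.88).

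**Figure D5:**
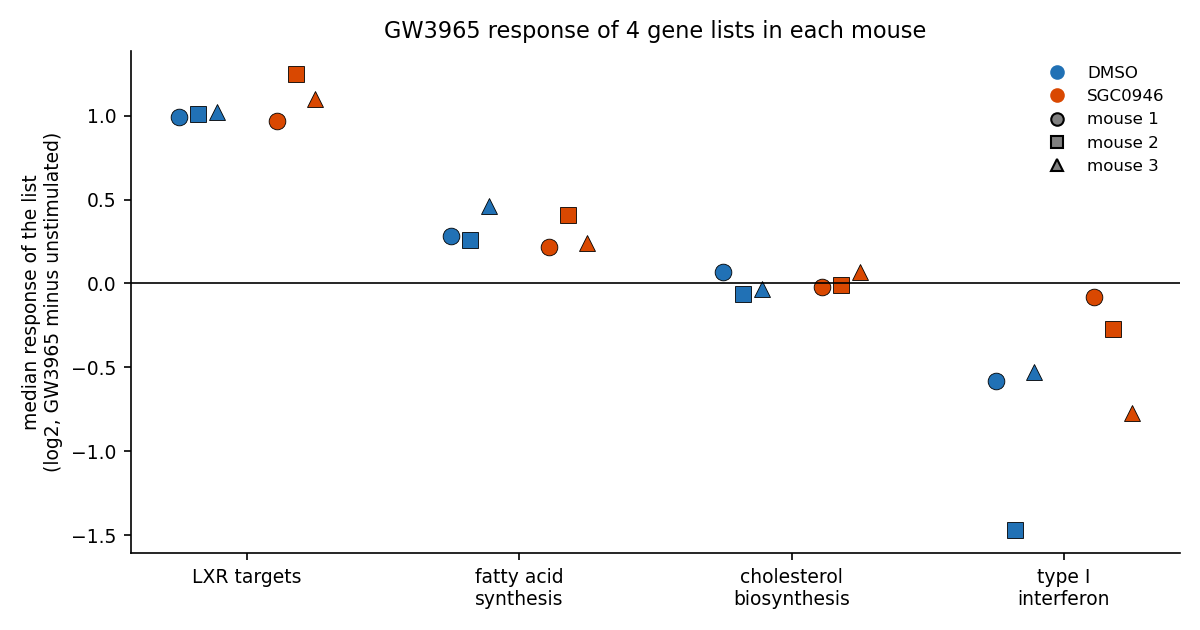
Median GW3965 response (log2, y axis) of 4 gene lists (x axis) in DMSO cells (blue) and SGC0946 cells (orange) of mice 1 to 3, each point being the library with agonist against the unstimulated library of the same mouse and arm. LXR targets are near 1 in all 6, while the interferon list runs from -1.47 to -0.53 in DMSO and from -0.77 to -0.08 in SGC0946 cells, ranges that overlap.

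Of 26 measured NF-kB inflammatory genes (28 in the list) 1 rose and 2 fell in DMSO cells (over all genes 1.35% and 1.2%). In SGC0946 cells 3 rose and 1 fell (1.32% and 1.11%), and in the average 5 rose and 7 fell (4.77% and 4.89%). Some measured members passed the filter only through the LPS libraries, such as Cxcl3 (3 counts over the 14 libraries) and Il6 (13). Such members hold little information on the responses. The median difference was 0.06, and 3 members of 26 had an unadjusted p under 0.05, against 2.41% of all genes. Ccl5, a T cell-attracting chemokine, was at 5.62, 4.18, 5.65 and 5.18 CPM in DMSO and 4.09, 4.7 and 6.25 CPM in DMSO+GW3965 cells. It was at 6.69, 7.08, 5.6 and 7.84 CPM in SGC0946 and 4.37, 3.02 and 3.42 CPM in SGC0946+GW3965 cells. In SGC0946 cells the groups did not overlap, in DMSO cells they did, and the difference of -0.87 (-1.46 to -0.29, adjusted p = 1) did not pass. Nfkbia, the inhibitor of NF-kB, differed by 0.24 (0.02 to 0.45) and Ptgs2, cyclooxygenase 2, by -1.89 (-3.44 to -0.34) at a mean of 0.706 CPM. Il1a, a cytokine gene of this list, rose in both arms, by 2.19 ± 0.32 and 1.82 ± 0.28, at a mean of 4.17 CPM; 11.2% of its exon bases are shared with another annotated gene, so its count is uncertain.

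The smallest p-value of the difference was that of Ltf, lactoferrin, a granule protein of neutrophils. Ltf was at 6.38, 6.96, 7.09 and 7.95 CPM in DMSO and 5.43, 6.33 and 8.45 CPM in DMSO+GW3965 cells. In SGC0946 cells it was at 0.608, 0.82, 1.08 and 2.28 CPM unstimulated and at 0.171, 0.259 and 0.101 CPM with GW3965, the last from 2, 3 and 1 counts. SGC0946 cells were lower in every library, and among them the agonist group lay under the unstimulated one. The difference was -2.61 (-4.00 to -1.22, adjusted p = 1). Of 16 neutrophil and granulocyte precursor markers 7 were measured, and they summed to 122 to 137 CPM in DMSO, 92.2 to 109 in DMSO+GW3965, 77.1 to 105 in SGC0946 and 51.4 to 72.1 in SGC0946+GW3965 cells. Abundant members weigh most in this sum. The median member, as log2 level against its DMSO mean, was at -0.17 to 0.17 in DMSO and -0.42 to -0.02 in DMSO+GW3965 libraries. It was at -3.59 to -2.3 in SGC0946 and -3.3 to -2.39 in SGC0946+GW3965 libraries. In these bulk samples fewer cells of a type and less RNA per cell cannot be told apart, and the part of such cells in the Ltf result was not tested. Ngp, another granule gene, differed by -0.85 (-2.06 to 0.36). Mmp8, the neutrophil collagenase, fell in both arms, by 0.65 ± 0.10 and 0.89 ± 0.11 on the log2 scale, a difference of -0.24 (-0.55 to 0.07).

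Other genes at the edge were likewise not called. Plaat3, a phospholipase and acyltransferase, was at 4.62, 4.51, 5.73 and 5.55 CPM in DMSO and 4.02, 6.33 and 7.1 CPM in DMSO+GW3965 cells. It was at 11.1, 12.3, 12.6 and 12.6 CPM in SGC0946 and 8.31, 8.11 and 7.55 CPM in SGC0946+GW3965 cells. Plaat3 fell in SGC0946 cells (-0.60 ± 0.14, adjusted p = 0.0207), and the difference was -0.77 (-1.21 to -0.34). Without DMSO+GW3965 1 the difference was -1.0 with an adjusted p of 0.215, the smallest of any gene in any alternative. Palm (-0.90), Snhg3 (-0.66) and Egln3 (-0.89) completed the 5 genes below 0, and all 3 had a mean of 4.09 to 6.02 CPM. Snhg3 shares 86.3% of its exon bases with other annotated genes, so its count is uncertain.

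Above 0 the 5 smallest p-values were those of Marcksl1 (0.36), Psmb4 (0.26), Cacna2d4 (2.22), A430057M04Rik (0.60) and Tpst1 (0.46). A430057M04Rik shares 17% of its exon bases with another gene, so its count is uncertain. Marcksl1, an actin-binding protein, was at 32.6, 29.4, 29.6 and 30.7 CPM in DMSO and 19.2, 21.3 and 22.6 CPM in DMSO+GW3965 cells. It was at 24.8, 22.7, 22.6 and 23.5 CPM in SGC0946 and 18.5, 22.5 and 20.9 CPM in SGC0946+GW3965 cells. It fell in DMSO cells (-0.54 ± 0.08, adjusted p = 0.000309), where the groups did not overlap, and had -0.18 ± 0.08 in SGC0946 cells, where the highest agonist library (22.5 CPM) stood next to the lowest unstimulated one (22.6 CPM). Tpst1, a tyrosine sulfotransferase, fell in DMSO cells by 0.46 ± 0.10 on the log2 scale and had -0.01 ± 0.11 in SGC0946 cells. Psmb4, a proteasome subunit at a mean of 84.8 CPM, had responses of -0.16 and 0.10 that did not pass. Cacna2d4 rested on 33 and 6 counts in the DMSO arm and 37 and 30 in the SGC0946 arm, without and with agonist.

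Of the genes that fell most in the average, at 1 CPM or more, Bmp2, Cx3cr1, Cxcl10 and Slco2b1 fell in both arms. Ltf fell in SGC0946 cells (-2.69 ± 0.61) and had -0.08 ± 0.23 in DMSO cells, and Mir6236 and Lars2 passed in neither arm. Bmp2, a signalling ligand, was at 4.87, 3.58, 3.18 and 3.08 CPM in DMSO and 0.871, 0.77 and 0.507 CPM in DMSO+GW3965 cells. It was at 7.64, 9.39, 8.67 and 9.2 CPM in SGC0946 and 2.14, 3.28 and 1.71 CPM in SGC0946+GW3965 cells. The level differed between arms with and without agonist, with no overlap, while the responses of -2.32 ± 0.30 and -1.86 ± 0.22 differed by 0.46 (-0.36 to 1.27). Cx3cr1, the fractalkine receptor, fell by 1.32 ± 0.29 and 2.18 ± 0.38 on the log2 scale, a difference of -0.86 (-1.91 to 0.18). Slco2b1, an organic anion transporter, fell in both arms as well and differed by 0.23 (-0.42 to 0.87). Mir6236 and Lars2 passed in the average alone (-1.44 and -1.38) and ran from 74 to 788 and from 89.1 to 862 CPM over the 14 libraries, with the same libraries high in both; the calls held in 14 and 17 of 30 alternatives. The long noncoding Bach2os rose by 2.03 in DMSO and 1.32 in SGC0946 cells, a difference of -0.71, at a mean of 2.65 CPM; 24.6% of its exon bases are shared with Bach2, so its count is uncertain.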

How the data were processed

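RNA of mouse macrophages was sequenced as 50-base single reads from KAPA mRNA HyperPrep libraries made from 700 ng of RNA, per the labels' protocols. The submitters' processing notes name STAR 2.5.2b, SAMtools 1.3.1 and the build mm10. How reads were counted, and whether strand was used, is not given in the sources used here. Counts of reads per RefSeq transcript were deposited by the authors, and an RPKM table of the same transcripts, also deposited, was used only for an alternative choice of transcript. Of 35745 transcripts 35435 were named from the RefSeq gene table for GRCm38.p6, the other 310 (1.18% of counts) were left out, and 1 transcript per symbol, the one with the highest total count, was kept for 24338 symbols (57.3% of counts).

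The tests used edgeR 4.0.16 and R 4.3.3 (quasi-likelihood F test, TMM, filterByExpr with a count minimum of 10, 1 mean per group over all 20 libraries) on 12010 genes (biological coefficient of variation 8.87%). Adjusted p-values are Benjamini-Hochberg over all genes tested, called under 0.05. An SE is the absolute log2 change over the root of its F statistic, and intervals are 95%. The per-mouse responses are log2 CPM with a prior count of 1. The script was tested on simulated data. Precision is set by 3 or 4 libraries a group and, for genes with few counts, by counting error. The fit did not pair the libraries of a mouse, so spread between mice is also part of the intervals.

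The deposited sample sheet names the number as the mouse, so the numbers pair libraries. Over the 2000 most variable genes 19 pairs of libraries of the same mouse in different groups had correlations of their deviations of 0.10 to 0.50 (median 0.21), against a median of -0.155 for other pairs. Pairs of mouse 1 had 0.43 to 0.50, and same-mouse pairs of mice 2 to 4 had 0.10 to 0.47. Pairs of different mice reached 0.23 (DMSO 4 with SGC0946+GW3965 3), so the 2 kinds of pair overlapped among mice 2 to 4.

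Genes were named by rule: the 5 per direction with the smallest p of the difference (10 where called), the 8 per direction with the largest called average response at 1 CPM or more, the 3 members of a list with the smallest p of the difference, any LXR target, SREBP or cholesterol synthesis gene, and Dot1l, Nr1h2 and Nr1h3. Some genes that the rule names are not reported here. The comparison, the members and the gene lists were chosen with earlier results of these data known. Alternatives were DESeq2 1.42.0, limma-voom (limma 3.58.1) with and without library weights, other scalings, filters, transcripts and sets of libraries, the mouse as a block, and leaving out each library or mouse.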

Additional observations from a re-analysis of the deposited data

Results flagged for a closer look

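Among 64 named genes, examined in the 2 unstimulated groups of 4 libraries, 3 values stood apart from the other 3 of their group by Dixon's criterion for 4 values; chance flags about 1 in 20 groups, and 3 of 128 (2.34%) were found. Fasn was at 209 CPM in DMSO 4, against 173 to 177 CPM in DMSO 1 to 3. Smpdl3a was at 292 CPM in DMSO 1, against 265 to 268 CPM in the other DMSO libraries. Cxcl10 was at 19.5 CPM in SGC0946 4, against 8.12 to 9.55 CPM in the other SGC0946 libraries. Mouse 4, the source of 2 of these libraries, has no GW3965 library.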

How the results depend on the processing

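The count of genes with a difference of responses was 0 under all 30 alternatives. Genes that responded in DMSO cells numbered 306, and 516 by DESeq2, 945 by limma-voom with library weights, 888 with the arm fitted alone, 532 with the mouse as a replicate block and 1045 with the block nested in the arm; leaving out 1 library or 1 mouse gave 56 to 386. In SGC0946 cells they numbered 291, 88 with the arm fitted alone, 395 with the block and 673 with the nested block, and 79 to 485 when 1 was left out. The average response gave 1160, 1752 with library weights, 1902 with the nested block, and 426 to 1379 when 1 was left out. The cause was not tested, beyond the smaller number of libraries in the fits that leave some out. Among named genes, a turned sign was counted only where a call was involved or the value moved by more than 1 SE. By this rule, leaving out 1 library or 1 mouse turned the DMSO response of Smpdl3a (-0.04 to 0.11), Ifi205 (-0.45 to 0.5) and Plaat3 (0 to 0.4). It also turned the SGC0946 response of Oas1a (-0.05 to 0.28) and the average response of Oas1a (-0.24 to 0) and Ptgs2 (-0.42 to 0.31). The differences so turned were those of Slco2b1 (-0.12 to 0.45) and Dot1l (-0.19 to 0.19). Smaller moves took other values across 0 over the alternatives. Among these were the differences of the LXR targets Abca1 (-0.24 to 0.03), Apoe (-0.34 to 0.12), Cd38 (-0.58 to 0.19) and Pltp (-0.16 to 0.16). The average of Ptgs2 was 0.31 over mice 1 to 3, 0.3 with the replicate block and 0.31 with the nested block. Of 100 calls of a response in named genes, 53 held in every alternative and 47 were lost in 1 or more, and none changed sign.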

Other observations

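Cell cycle genes were the list with the most members, by count, whose responses did not overlap between the mice of the 2 arms. Of 35 genes 1 fell in DMSO cells and 0 in SGC0946 cells by edgeR, and 3 fell in the average. Over all genes 1.2%, 1.11% and 4.89% fell. With a mouse effect in each arm 4 fell in DMSO cells, 14 in SGC0946 cells and 19 in the average. With the DMSO arm fitted alone 5 fell there, and 0 fell there without DMSO+GW3965 1 or 3 and without mouse 1 or 3. In the average 1 to 4 fell in the other alternatives. The median response was -0.11 in DMSO and -0.22 in SGC0946 cells, with a median difference of -0.08. Per mouse the median response was -0.23, -0.05 and 0.09 in DMSO cells of mice 1 to 3 and -0.31, -0.29 and -0.20 in SGC0946 cells. Every SGC0946 mouse lay below every DMSO mouse for 12 of the 35 genes and above for 0, against 5.06% and 5.02% of all genes. This count was looked at after the values were seen, and cell cycle genes vary together. Kif11, a spindle motor, was at 68.3, 76.9, 71.7 and 79.8 CPM in DMSO and 61.6, 77.6 and 76.6 CPM in DMSO+GW3965 cells. It was at 72.8, 42, 73.7 and 44.8 CPM in SGC0946 and 49.3, 30.6 and 55 CPM in SGC0946+GW3965 cells, where mice 2 and 4 were again the low libraries. Its difference was -0.32 (-0.87 to 0.22). The median difference of the list was 0.13 without SGC0946+GW3965 2 and -0.25 without SGC0946+GW3965 3. With a mouse effect in each arm 12 members had an unadjusted p under 0.05, against 0 without it. Over all genes the shares were 4.47% and 2.41%.

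Glycolysis genes differed little, with 15 of 18 below 0 and a median difference of -0.11, against a median of 0.01 over all genes. The list's median ran from -0.14 to -0.07 over the alternatives. Slc16a3, a lactate exporter, and Hk2, a hexokinase, differed by -0.30 (-0.65 to 0.05) and -0.32 (-0.70 to 0.07). Of 11 measured MHC class II genes none passed in either arm, and the median responses were -0.24 and -0.28; H2-DMb1 had the smallest p of the difference, -0.20 (-0.52 to 0.12). Of 14 measured alternative activation genes 2 fell in DMSO cells, 3 in SGC0946 cells and 5 in the average, against 1.2%, 1.11% and 4.89% of all genes. Ccl17, a measured member, had 0 counts in the 14 libraries and passed the filter only through the LPS libraries. Klf4, a transcription factor of that list, fell in SGC0946 cells by 0.72 ± 0.14 on the log2 scale (edgeR adjusted p = 0.00773) and had -0.41 ± 0.14 in DMSO cells, a difference of -0.31 (-0.73 to 0.12).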
